A study of Mus musculus with 4 samples.

Results

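Iron and haem handling was followed through 10 genes, Hmox1, Hmox2, Alas1, Fech, Fth1, Ftl1, Tfrc, Slc40a1, Hamp and Slc11a2, out of 20886 genes that could be named on the array. They were chosen by function, as the enzymes, stores, transporters and hormone of the pathway, and every one of their probes was taken by its RefSeq identifier. The 10 genes had 17 of the 39429 distinct probes, and 16 of these, with at least 1 for every gene, were bright enough to be tested. A probe was tested where it was well above background, by the scanner software's own flag, on at least 2 of the 4 arrays.

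RNA of adult mouse cardiomyocytes, the contractile cells of the heart, was hybridised to 4 one-colour arrays, 2 after PBS and 2 after doxycycline. All animals were 10-week-old males from a cross of mice carrying CRE under the αMHC promoter, which is active in heart muscle cells, with mice carrying the Yamanaka factors OSKM under tetO, a promoter that doxycycline can switch on. Doxycycline or PBS was given for 2 days and the cardiomyocytes were then isolated, so the controls carried the same alleles and differed in the agent injected. Arrays from animals given doxycycline without the OSKM allele were not analysed here, so the agent and the factors cannot be told apart. The labels do not say whether the arrays came from separate animals or from pooled ones, and the p-values therefore measure the spread between these arrays, which may be technical.

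Iron enters most cells bound to transferrin, is stored inside ferritin, and leaves through ferroportin, which the liver hormone hepcidin switches off. Haem is built in the mitochondrion from glycine, succinyl-CoA and iron, and is broken down by haem oxygenases, which release the iron again. Iron regulatory proteins set much of this balance after transcription, since they stabilise the transferrin receptor mRNA and block the translation of ferritin when iron is scarce, so an mRNA level shows only part of it.

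A level below is the log2 processed signal of a probe minus the 75th percentile of its own array, and a difference is the mean level on the doxycycline arrays minus that on the control arrays, with its standard error. Levels of different probes are not comparable with each other. The test was limma's, across all 20092 probes bright enough, with Benjamini-Hochberg adjustment and a threshold of 0.05. With 2 arrays against 2, an exact two-sided permutation test of a single value cannot give a p below 0.333.

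No saturated spot was found, and between 50.6% and 51.8% of spots were well above background on each array. The 2 doxycycline arrays resembled each other most, at r = 0.975 across probes, and the 2 control arrays at r = 0.942. Control 1 stood apart in quality: its repeated spots varied by 10.99%, against 4.02% to 4.81% on the other arrays, and its correlation with doxycycline 1 was the lowest of all pairs at 0.922. Where leaving out control 1 moved a printed difference of an iron or haem gene by over 1.5 times or turned it, the value without it is given below or among the effects of processing. All 4 arrays lay on 1 slide, with the controls in positions 1 and 2 and doxycycline in positions 3 and 4, so position and treatment cannot be told apart.

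All 10 cardiomyocyte markers were well above background on every array. Their median difference was 0.05, and it was -0.34 without control 1 and 0.52 without control 2. Of the 10, 1 lay higher and 2 lower without overlap, beside 14.5% and 20.8% of all genes by their brightest probe. The counts without overlap of the other marker lists are to be read against these shares. Their summed signal, relative to each array's 75th percentile, was 4093 and 4913 in the controls and 3290 and 4143 after doxycycline. RNA of other cells was also present. All 7 of the 7 red cell markers tested were lower on both doxycycline arrays, and control 1 was far the highest. The summed signal of these 7, relative to each array's 75th percentile, was 344 and 72.1 in the controls and 48.7 and 58.1 after doxycycline. Slc4a1, Epb42 and Rhag, which mark red cell precursors, did not stand well above background on any of the 4 arrays. The 10 macrophage markers tested summed to 24.7 and 9.01 against 9.90 and 8.56, and 6 of the 10 were lower without overlap. Cd163 and Timd4 were not above background on any array. The 5 neutrophil markers tested summed to 75.4 and 40.1 against 51.9 and 56.3, but most of this sum was Csf3r, the brightest of them. S100a8 and S100a9 lay higher after doxycycline without overlap, by 3.67 and 3.26, while Elane, Csf3r and Camp overlapped. Mpo and Cxcr2 were not above background on any array. The fibroblast markers differed most: all 9 had a lower mean after doxycycline, and 0 passed the adjusted threshold (limma). Of the 9, 6 lay lower without overlap and with an unadjusted p under 0.05 (limma), Postn among them. Over all probes tested, 3.28% had such a p with doxycycline lower. The median difference of the fibroblast markers was -2.49, and -1.47 without control 1, with Lum at -3.76 and Dcn, the brightest of the list, at -0.32. Postn, at -3.24, was well above background on both controls and on 0 doxycycline arrays. It passed the filter only through the controls, and the size of its difference is not reliable. The fibroblast markers summed to 217 and 67.1 in the controls and 77.4 and 83.3 after doxycycline, and most of this sum was Dcn. The 8 endothelial markers had a median difference of -0.18, which was 0.49 without control 1, and summed to 105 and 33.5 against 52.4 and 58.3. The part of fibroblast or endothelial RNA in the results below was not tested. In RNA from a whole preparation, fewer cells of a type and less RNA per cell cannot be told apart.

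No probe of the 10 genes passed the adjusted threshold, and neither did any of all 20092 probes tested, a background of 0%. Among the 16 member probes, adjusted p ran from 0.275 to 0.999 (limma), and 4 had an unadjusted p under 0.05: both probes of Hmox1, which lay higher after doxycycline, and both tested probes of Tfrc, which lay lower. Over all probes tested, 3.10% had an unadjusted p under 0.05 with doxycycline higher and 3.28% with doxycycline lower. The groups did not overlap for 3 member probes on the higher side and 4 on the lower side, or 18.8% and 25% of 16, beside 15.3% and 19.4% of all probes. Taking only the brightest probe of each gene, 2 of 10 lay higher and 2 lower without overlap, which is 20% on either side, beside 14.5% and 20.8% of all genes. These shares were near the background, so the number of separated members is not a result about the pathway. The median difference of the 16 probes was 0.03, beside -0.0438 over all probes.

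**Figure D1:**
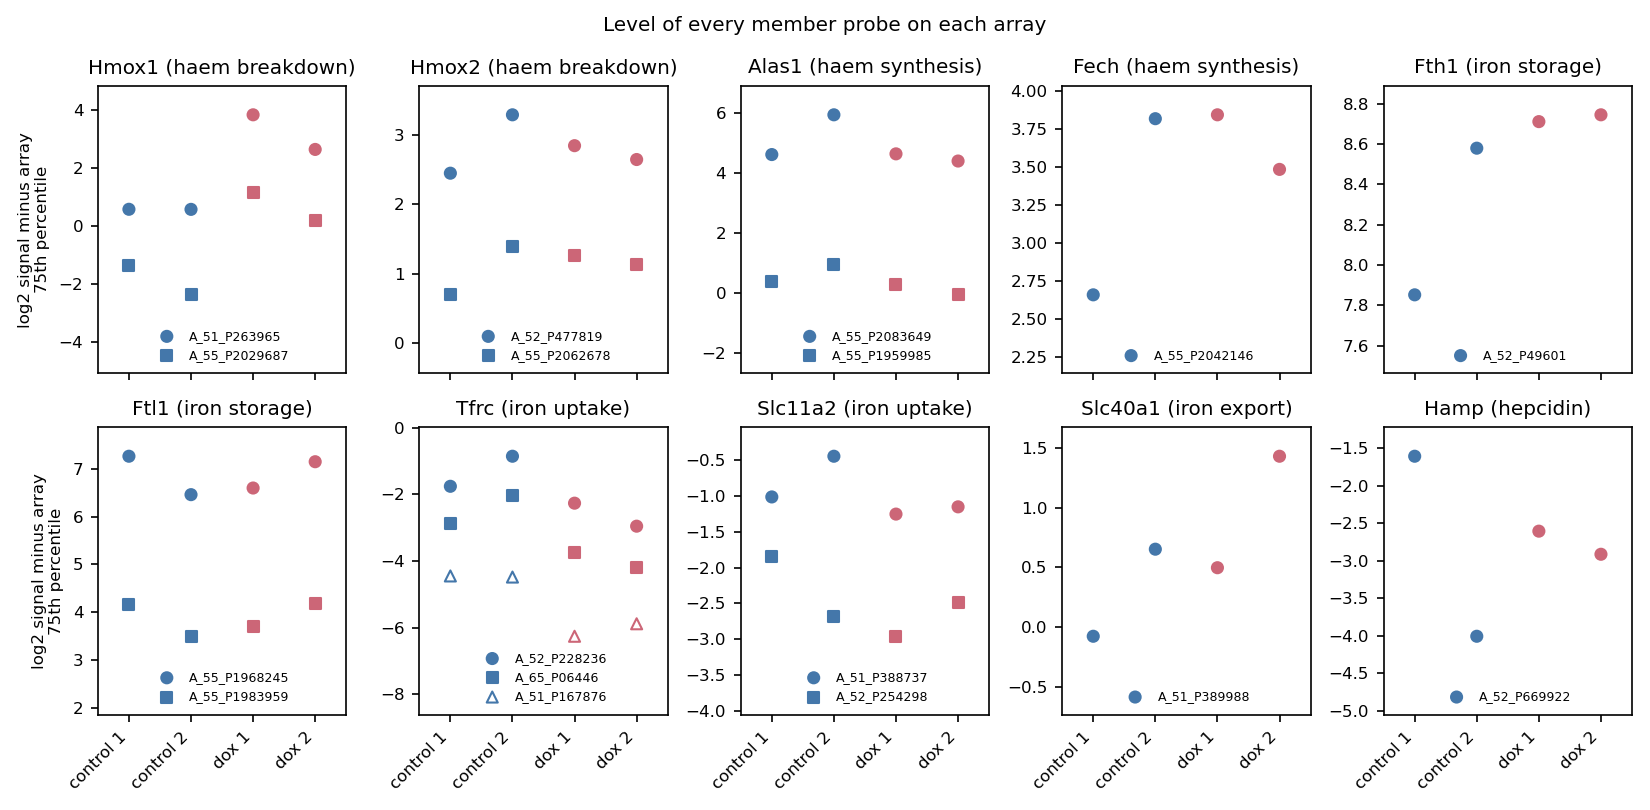
Level of each member probe on each array, as log2 signal minus the array's 75th percentile, with control arrays in blue and doxycycline arrays in red, 1 panel per gene with its own axis and filled symbols for tested probes. Hmox1 lies higher on both doxycycline arrays with both probes, Tfrc lies lower, and most of the other genes overlap; the open triangles are the Tfrc probe that was too dim to test.

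Hmox1, the inducible haem oxygenase that opens the haem ring and releases iron, carbon monoxide and biliverdin, had the widest separation of the 10 genes. Its brighter probe, A_51_P263965, had levels of 0.58 and 0.57 on control 1 and control 2 and of 3.83 and 2.64 on doxycycline 1 and doxycycline 2. In linear signal these were 167 and 254 against 3523 and 1197. Both doxycycline arrays stood well above both controls, the controls were almost equal, and doxycycline 1 exceeded doxycycline 2 by 1.19. The difference was 2.66 ± 0.51, with a 95% interval from 1.44 to 3.87, or 6.30-fold, ranked 105 by p among all probes (adjusted p = 0.275, limma). With each array left out in turn the difference stayed between 2.06 and 3.25.

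The dimmer Hmox1 probe, A_55_P2029687, had levels of -1.34 and -2.37 in the controls and 1.16 and 0.18 after doxycycline. It showed the same order of groups without overlap, with signals of 44.3 and 33.1 against 554 and 218. Its difference was 2.52 ± 0.55, with an interval from 1.21 to 3.84 (adjusted p = 0.336, limma). With another background correction, normexp, the size fell to 1.41 on the log2 scale for this probe. Scaling each array by its median gave 3.0 and 2.87 for the brighter and the dimmer probe, past the threshold with adjusted p of 0.0293 and 0.0341 (limma), on a scale that moved the median of all probes up by 0.35. Macrophages, which clear old red cells, are rich in Hmox1; their markers summed to less on the doxycycline arrays than on control 1 and nearly the same as on control 2, as given above, and their part in the Hmox1 level was not tested.

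Hmox2, the constitutive haem oxygenase, gave no such separation. Its brighter probe, A_52_P477819, read 2.45 and 3.29 in the controls and 2.85 and 2.65 after doxycycline, so both doxycycline arrays lay between the controls. The difference was -0.12 ± 0.45 with an interval from -1.21 to 0.96 (adjusted p = 0.989, limma). The second probe, A_55_P2062678, read 0.69 and 1.39 against 1.27 and 1.13, again inside the range of the controls, with a difference of 0.16 ± 0.43. Whether Hmox1 and Hmox2 differed from each other in their response was not tested.

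Alas1 encodes the first and rate-setting enzyme of haem synthesis outside red cells, and haem represses it. Its brighter probe, A_55_P2083649, had levels of 4.61 and 5.93 in the controls and 4.63 and 4.39 after doxycycline. Control 2 alone was high, and control 1 lay between the doxycycline arrays. The difference was -0.76 ± 0.54, with an interval from -2.04 to 0.52 (adjusted p = 0.913, limma), and it was -1.42 without control 1 and -0.10 without control 2. The dimmer probe, A_55_P1959985, read 0.40 and 0.95 against 0.27 and -0.06, which is lower without overlap by a gap of 0.13, with a difference of -0.57 ± 0.43 that was -0.84 without control 1 and -0.29 without control 2. Both probes thus pointed the same way and neither passed the test.

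Fech encodes ferrochelatase, which places iron into protoporphyrin in the last step of haem synthesis. Its single probe, A_55_P2042146, read 2.66 and 3.82 in the controls and 3.84 and 3.48 after doxycycline. Control 1 alone was low. The difference of 0.43 ± 0.51 (adjusted p = 0.956, limma) turned to -0.15 without control 1.

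Ferritin stores iron in a shell of heavy chains, which oxidise it, and light chains, which help it mineralise. Fth1, the heavy chain, was measured by A_52_P49601 at 7.85 and 8.58 in the controls and 8.71 and 8.74 after doxycycline. Both doxycycline arrays lay above both controls, but above control 2 by only 0.13. The difference was 0.51 ± 0.44 with an interval from -0.53 to 1.55 (adjusted p = 0.923, limma). It was 0.15 without control 1 and 0.88 without control 2.

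Ftl1, the light chain, overlapped on both probes. A_55_P1968245 read 7.26 and 6.46 in the controls and 6.60 and 7.15 after doxycycline, for a difference of 0.01 ± 0.47, and A_55_P1983959 read 4.16 and 3.5 against 3.70 and 4.18, for 0.11 ± 0.45. The doxycycline arrays lay within or at the edge of the controls' range, and the interval of the brighter probe, from -1.11 to 1.14, leaves room for a change of either sign. Both ferritin chains have near-identical processed copies in the genome, so a probe may also bind RNA of a copy.

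Tfrc encodes transferrin receptor 1, which takes up iron bound to transferrin. It was the member with the largest number of probes, and one of them, A_52_P228236, was printed as 10 spots on every array. Its levels were -1.76 and -0.86 in the controls and -2.26 and -2.95 after doxycycline, in signal 34.0 and 94.6 against 51.7 and 25. Both doxycycline arrays lay below both controls on the scaled level, though the unscaled signal of doxycycline 1 was above that of control 1. The difference was -1.30 ± 0.50, with an interval from -2.49 to -0.11, or 2.47-fold lower (adjusted p = 0.737, limma).

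The second probe, A_65_P06446, read -2.87 and -2.03 in the controls and -3.75 and -4.20 after doxycycline. It separated the groups the same way, although on doxycycline 2 it was not well above background. Its difference was -1.52 ± 0.47, with an interval from -2.64 to -0.40 (adjusted p = 0.566, limma). With each array left out the differences stayed between -1.75 and -0.85 for the first probe and between -1.94 and -1.10 for the second, and normexp background correction gave -0.77 and -0.78. The probe A_51_P167876 did not stand well above background in any of the 4 hybridisations, so it has no fold and was not tested. Tfrc is also abundant in red cell precursors, and the red cell markers summed highest on control 1, while Tfrc was highest on control 2; the part of red cell RNA in the Tfrc level was not tested.

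**Figure D2:**
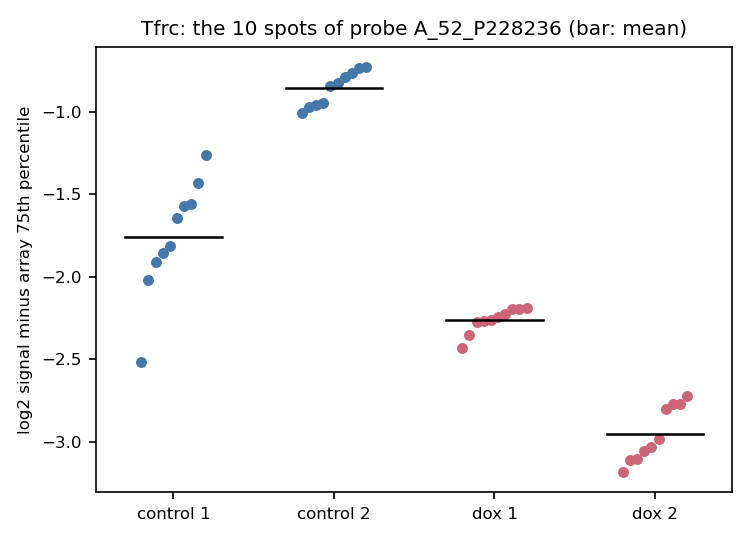
The 10 spots of the Tfrc probe A_52_P228236 on each array, as log2 signal minus the array's 75th percentile, with a bar at the mean. The spots of control 1 spread from -2.52 to -1.26 and reach into the range of doxycycline 1, from -2.43 to -2.19, while the spots of control 2, from -1.01 to -0.73, lie above all spots of the doxycycline arrays.

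The spots of one array are repeats of a measurement and not replicates of the treatment. Over the 10 spots the signal varied by 22.6% on control 1, 7.30% on control 2, 5.23% on doxycycline 1 and 11.9% on doxycycline 2. The spot noise was thus largest on the control array whose mean lay nearest to the doxycycline arrays.

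Slc11a2 encodes DMT1, which carries ferrous iron out of the endosome after transferrin uptake. Its brighter probe, A_51_P388737, read -1.02 and -0.45 in the controls and -1.26 and -1.16 after doxycycline. The doxycycline arrays lay below both controls by a gap of 0.14, and the difference was -0.47 ± 0.42 (adjusted p = 0.925, limma). It was -0.76 without control 1 and -0.19 without control 2. The dimmer probe, A_52_P254298, read -1.85 and -2.68 against -2.96 and -2.48, which overlap, with a difference of -0.45 ± 0.47 that was -0.038 without control 1 and -0.87 without control 2.

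Slc40a1 encodes ferroportin, the only known exporter of iron from mammalian cells. Its probe, A_51_P389988, read -0.08 and 0.65 in the controls and 0.50 and 1.43 after doxycycline. Doxycycline 2 was the highest and control 1 the lowest, and control 2 lay above doxycycline 1. The difference was 0.68 ± 0.51, or 1.60-fold, with an interval from -0.53 to 1.89 (adjusted p = 0.913, limma), and it ranged from 0.21 to 1.14 with each array left out, with 0.31 without control 1.

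Hamp encodes hepcidin, the peptide that binds ferroportin and sends it to degradation. It comes mostly from the liver, and it was dim here: its probe, A_52_P669922, read -1.61 and -4.01 in the controls and -2.61 and -2.91 after doxycycline, and was not well above background on control 2. Both doxycycline arrays lay between the controls. The difference was 0.05 ± 0.77 with an interval from -1.80 to 1.89 (adjusted p = 0.997, limma), and leaving out a control turned it to 1.25 or -1.15, so no direction could be read for Hamp.

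**Figure D3:**
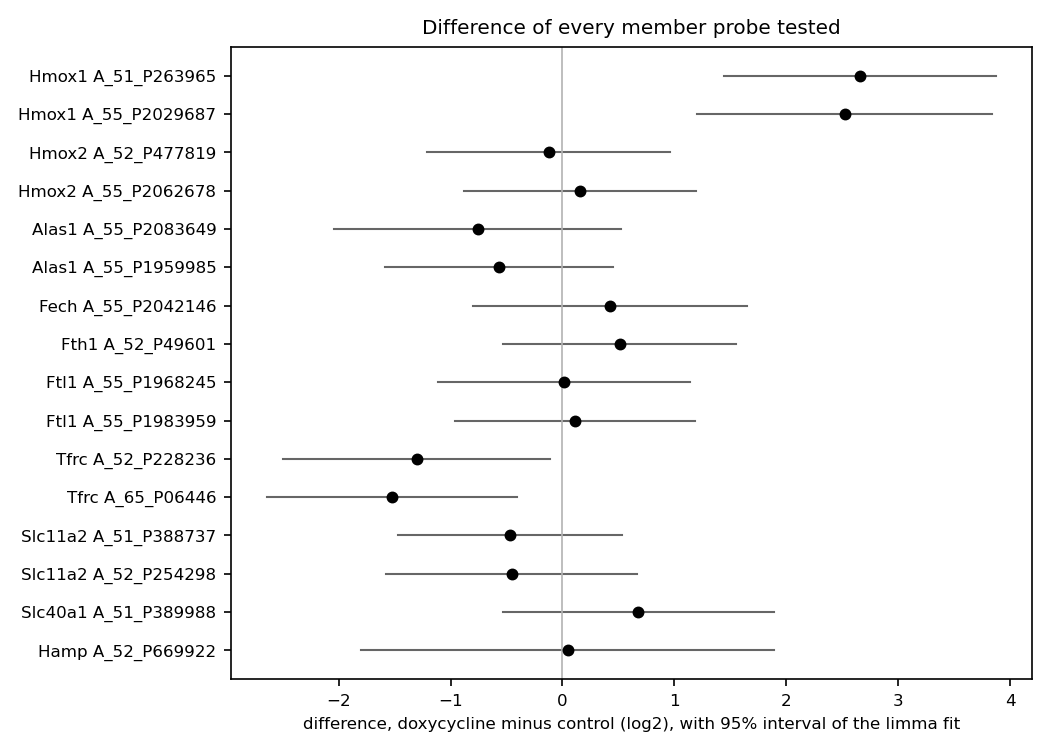
Difference in level, doxycycline minus control on the log2 scale, of the 16 member probes tested, as points with the 95% interval of the limma fit over 2 control and 2 doxycycline arrays. Only the intervals of the 2 Hmox1 probes and the 2 Tfrc probes lie on one side of 0; these intervals are not adjusted for the number of probes.

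**Figure D4:**
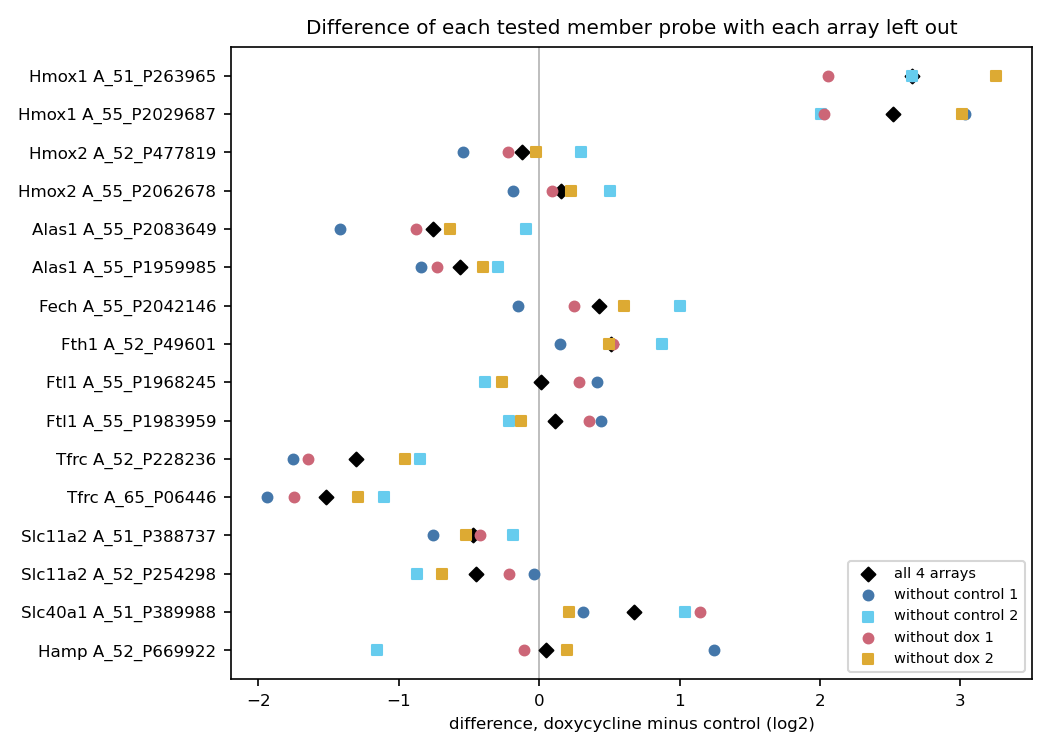
The same difference of each tested probe with all 4 arrays (diamond) and with each array left out in turn (circles and squares). The lowest Hmox1 point lies at 2.01 and the highest Tfrc point at -0.85, while the points of Hmox2, Fech, Ftl1 and Hamp fall on both sides of 0 for at least 1 probe.

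Sequence before the transcription start was available for 6 of the 10 genes, in 11 windows of 250 bases from RefSeq on GRCm38.p6. These were Alas1, Fth1, Ftl1, Hamp, Hmox2 and Tfrc, so Hmox1, Fech, Slc40a1 and Slc11a2 were not searched. Hamp and Tfrc are shown, the hormone that closes iron export and the receptor that opens iron uptake, Hamp because its window held the largest number of different motifs among those searched, and Tfrc because both of its tested probes lay lower after doxycycline. Capitals mark matches to GGCGCC, known from the Hamp promoter as an element that answers bone morphogenetic proteins, to TTCNNNGAA, the form bound by STAT factors, and to TGANTCA, the form bound by AP-1. The Hamp window is chr7:30944030-30944279 and is written on the minus strand, and the Tfrc window is chr16:32608646-32608895 on the plus strand, both 5′ to 3′.
Hamp: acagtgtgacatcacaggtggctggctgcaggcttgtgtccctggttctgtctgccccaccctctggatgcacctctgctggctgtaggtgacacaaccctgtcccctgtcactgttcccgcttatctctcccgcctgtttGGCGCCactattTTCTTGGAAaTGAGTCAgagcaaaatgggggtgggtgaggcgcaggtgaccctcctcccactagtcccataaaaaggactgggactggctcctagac
Tfrc: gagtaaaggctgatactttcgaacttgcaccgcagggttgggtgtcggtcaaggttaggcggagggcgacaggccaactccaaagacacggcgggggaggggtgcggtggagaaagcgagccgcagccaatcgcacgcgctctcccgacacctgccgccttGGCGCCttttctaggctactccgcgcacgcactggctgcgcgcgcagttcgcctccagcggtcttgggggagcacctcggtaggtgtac
Both strands were searched. In Hamp, GGCGCC lay at -109 to -104 from the start, TTCTTGGAA at -97 to -89 and TGAGTCA at -87 to -81, none overlapping another. In Tfrc, GGCGCC lay at -89 to -84 before the start at 32608896, and the window of the start at 32609122 had no match. Hmox2, not shown, also held GGCGCC, with 1 match before the start at 4756881 and 3 before the start at 4756946, in windows that overlap. Alas1, not shown, held TTCGTAGAA at -171 to -163 before the start at 106247954. Of all 32851 promoter windows of this length, 9.59% held GGCGCC, 7.02% held TTCNNNGAA and 6.75% held TGANTCA. The E-box CACGTG, held by 6.02%, and TGACNNNGC, the core of the antioxidant element, held by 10.16%, had no match in the 11 windows. None of these windows belongs to Hmox1. These are matches of letters, and binding was not measured.

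Beyond the 10 members, 88 further genes of 10 lists of the pathway were on the array, and 77 were bright enough to be tested by their brightest probe. None passed the adjusted threshold (lowest adjusted p = 0.266, limma). At an unadjusted p under 0.05, 8 of the 77 lay higher after doxycycline, which is 10.4% beside the 3.10% of all probes, and 0 lay lower. The groups did not overlap for 16 on the higher side, 20.8%, and 9 on the lower side, 11.7%, beside 14.5% and 20.8% of all genes by their brightest probe. The counts in each list below are to be read against the same shares. The median difference of the 77 genes was 0.02. These genes share arrays, and the lists were drawn up with results of these data known, so the shares are descriptions.

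In the iron uptake list, Lcn2, Slc39a8 and Slc39a14 lay above the controls. Lcn2, the lipocalin that binds iron-carrying siderophores, read -0.25 and -1.01 in the controls and 5.37 and 2.75 after doxycycline, a difference of 4.69 ± 0.85 (adjusted p = 0.266, limma). Both doxycycline arrays were far above both controls, and doxycycline 1 far above doxycycline 2. Without doxycycline 2 the difference was 6.01 and passed the threshold, with adjusted p = 0.00146 (limma), and without doxycycline 1 it was 3.38. Lcn2 is also a neutrophil granule protein. The neutrophil genes S100a8 and S100a9 lay higher by 3.67 and 3.26, and by 4.39 and 3.81 without control 1. Elane, Csf3r and Camp differed by -0.39, -0.33 and -0.34 with overlapping groups, and by 0.14, 0.12 and 0.53 without control 1. Ngp was well above background on doxycycline 1 alone and was not tested, with signals of 8.42 and 4.04 against 59.2 and 4.84. The part of neutrophils in the Lcn2 level was not tested.

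Slc39a8, a ZIP family carrier of zinc, manganese and ferrous iron, read -2.79 and -2.36 in the controls and -0.19 and -0.18 after doxycycline. The doxycycline arrays were nearly equal and lay well above both controls, with a difference of 2.39 ± 0.40, or 5.23-fold (adjusted p = 0.266, limma). With normexp background correction the difference was 0.89. Its relative Slc39a14 read -0.28 and 0.73 against 2.01 and 1.53, also without overlap, with a difference of 1.54 ± 0.49 that was 1.04 without control 1. Slc22a17, the cell surface receptor proposed for lipocalin 2, overlapped, at 0.84 and -0.70 against -1.69 and -0.47, and its difference of -1.15 was -0.38 without control 1. Of the 13 uptake genes on the array, Tfrc and Slc11a2 included, 11 were tested, and 3 lay higher and 3 lower without overlap, with a median of -0.47. Tfr2, the second transferrin receptor, was well above background on 1 control array and was not tested.

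In haem breakdown and scavenging, Hp was next to Hmox1 in size. It encodes haptoglobin, which captures free haemoglobin, and it read -1.95 and -2.43 in the controls and 1.07 and -0.35 after doxycycline, for a difference of 2.55 ± 0.56 (adjusted p = 0.341, limma). With normexp background correction it was 1.52. Both doxycycline arrays lay above both controls, as with Hmox1. Por, the reductase that feeds electrons to haem oxygenase, read 1.96 and 2.21 against 3.45 and 2.63, a difference of 0.96 that was 0.55 without doxycycline 1. Blvrb, a biliverdin reductase, lay the other way, at 1.31 and 1.49 against 0.83 and 0.59, and the haem scavenger Hpx and the haemoglobin receptor Cd163 were not above background on any array. Of 9 genes on the array 7 were tested, with 3 higher and 1 lower without overlap.

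In haem synthesis, 13 genes were tested, with 1 higher and 1 lower without overlap and a median of -0.10. The lower one was Alas2, the red cell form of the first enzyme, at 0.09 and -2.22 in the controls and -2.98 and -2.45 after doxycycline. Control 1 alone was high, as it was for the haemoglobin genes: without control 1 the Alas2 difference went from -1.65 to -0.49 (and with normexp to -0.94), and the median of the red cell markers, of which Alas2 is 1, from -1.53 to -0.42. The part of red cell RNA in the Alas2 level was not tested. Clpx, a mitochondrial chaperone that activates ALAS, was the higher one at 1.58 and 3.04 against 3.41 and 3.25, and its difference of 1.02 was 0.30 without control 1.

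Among the 8 haem transport genes, all tested, 1 lay higher and 3 lower without overlap. Slc46a1, a folate and haem carrier, read -0.27 and 0.38 in the controls and -1.67 and -0.65 after doxycycline, for a difference of -1.22 ± 0.51, or -0.71 without doxycycline 1. Flvcr1, a transporter first described as a haem exporter, read -3.74 and -3.16 against -2.19 and -2.89. Its difference of 0.91 turned to -0.085 with normexp background correction, so it carries no settled direction.

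Cp encodes ceruloplasmin, the ferroxidase that hands iron leaving through ferroportin to transferrin. It read 1.55 and 1.25 in the controls and 3.32 and 2.68 after doxycycline, for a difference of 1.60 ± 0.43, or 3.03-fold (adjusted p = 0.446, limma). Both doxycycline arrays lay above both controls by more than the arrays within either group differed. Heph, the related ferroxidase of the gut, overlapped, at -1.69 and -3.78 against -4.37 and -3.46, and its difference of -1.18 was -0.13 without control 1. In the control of hepcidin, Hfe, an upstream sensor of iron-loaded transferrin, read 1.32 and 1.51 against 2.80 and 2.17, and Hjv, the muscle and liver co-receptor for bone morphogenetic proteins, read 1.07 and 2.48 against 2.99 and 2.69. The Hjv difference of 1.06 was 0.35 without control 1. The receptor Acvr1 lay lower, at 2.29 and 2.09 against 1.23 and 1.58.

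The storage list held little else: Pcbp1 and Pcbp2, chaperones that deliver iron to ferritin, differed by 0.18 and -0.19 with adjusted p of 0.982 for both (limma), and Pcbp2 by -0.30 without control 1. Ftmt, the mitochondrial ferritin, was well above background on 1 control array and was not tested. Of the iron sensors, Aco1, the first iron regulatory protein, was not above background on any array, and Ireb2, the second, was above it on 1 doxycycline array, so neither was tested. Cul1 and Skp1, ubiquitin ligase parts that remove iron regulatory protein 2 together with Fbxl5, differed by 0.65 and 0.58, and without control 1 by 0.36 and 0.14. The 18 genes of mitochondrial iron and iron-sulphur clusters had a median of 0.15, with 1 higher and 0 lower without overlap. Slc25a28, the mitochondrial iron importer mitoferrin 2, read 1.37 and 1.90 in the controls and 2.52 and 2.37 after doxycycline, and Iscu, the cluster scaffold, 3.92 and 5.01 against 5.56 and 4.99. The Iscu difference of 0.81 was 0.26 without control 1.

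Among the 10 regulators of Hmox1 and Alas1, Mafk and Maff had the largest differences. They are small Maf proteins, which pair with NRF2 or BACH1 on the Hmox1 gene. Mafk read 0.42 and 0.34 in the controls and 2.15 and 1.44 after doxycycline, for 1.41 ± 0.43 (adjusted p = 0.568, limma). Both doxycycline arrays lay above both nearly equal controls. Maff read 0.67 and -0.70 against 1.84 and 0.98, for 1.42 ± 0.59, or 0.74 without control 2, and the related Mafg differed by 0.36 ± 0.40. Bach1, the haem-sensing repressor of Hmox1, read 0.49 and 0.64 against -0.49 and 0.48, for -0.56 ± 0.47, a difference that was -0.08 without doxycycline 1.

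**Figure D5:**
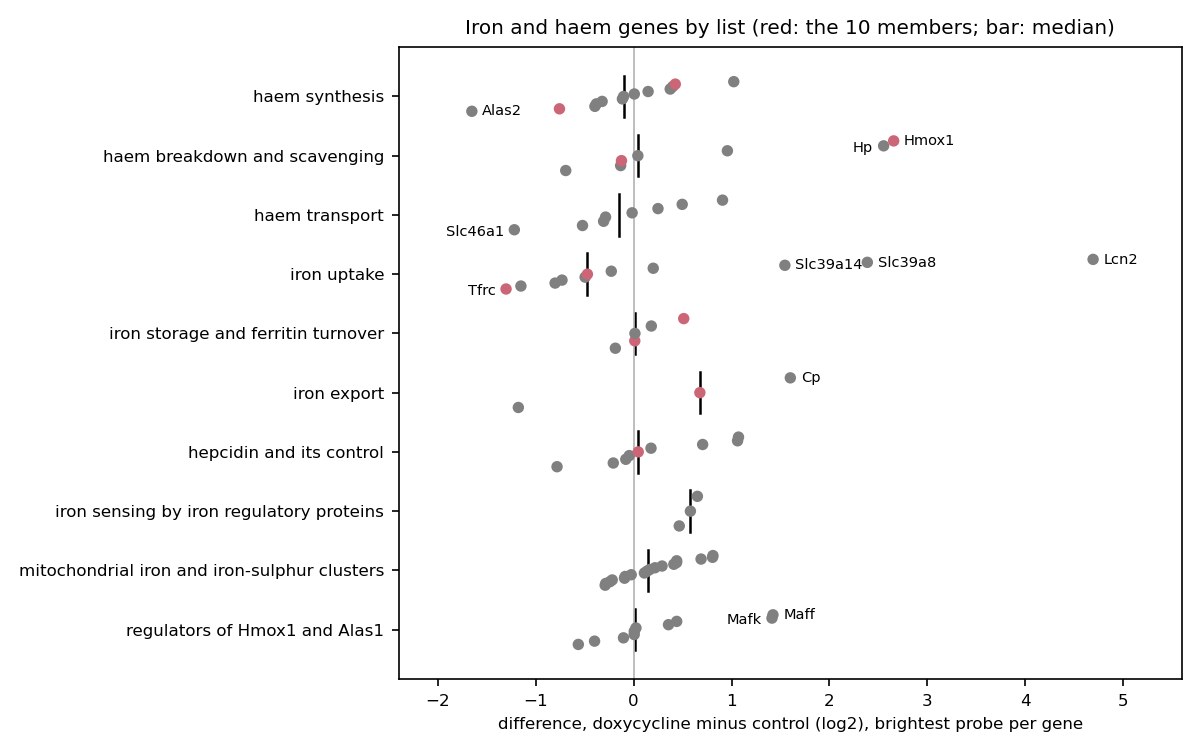
Difference, doxycycline minus control on the log2 scale, of each tested gene of the 10 lists by its brightest probe, with the 10 members in red, the other genes in grey and a bar at each list's median. Lcn2 at 4.69, Hmox1 at 2.66, Hp at 2.55 and Slc39a8 at 2.39 stand to the right of the rest, and Alas2 at -1.65 and Tfrc at -1.30 are the lowest; no gene passed the adjusted threshold.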

How the data were processed

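RNA from 4 cardiomyocyte preparations was measured, and arrays were grouped by their titles. Per the file headers, the deposited intensity is the Cy3 signal of Agilent Feature Extraction 10.7.1.1, background-subtracted on a linear scale and not scaled between arrays. The deposited files also hold other columns, flags for outlying spots and for spots well above background, used as given. Each array had 44397 spots, 43020 of them not controls. The files give an identifier and no symbol for each probe; 27508 probes were named without versions through a RefSeq table of GRCm38.p6, used for names only, while 1641 RefSeq identifiers had no match and 10280 probes had other identifiers.

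Control spots and outlying spots were left out, and so were the 35 probes that had no unflagged spot left on some array. Intensity was log2-transformed, the array's 75th percentile over non-control spots was subtracted, and spots of a probe were averaged. Probes well above background on at least 2 arrays entered a two-sided limma test (version 3.58.1, lmFit and eBayes, under R 4.3.3). The Benjamini-Hochberg adjustment covered 20092 probes, of which 16042 were named, for 12542 genes. The fit had 2 residual and 4.60 prior degrees of freedom. The number of arrays and the signal over background limit the precision. The fit was tested on simulated data first. Alternatives changed the background correction, the scaling, the filter, the rule for several probes and the arrays included.

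All member probes are named. Of the other pathway genes, those named are among the up to 4 with the smallest p in each list, with genes seen above background in only part of the arrays; which of them are printed was decided after their values were seen. The members and all lists, cell type markers included, were chosen with earlier results of these data known.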

Additional observations from a re-analysis of the deposited data

How the results depend on the processing

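Across 13 alternatives, 15 of 200 values of member probes and 4 of 336 values of 26 other named genes changed sign, and the Hmox1 and Tfrc differences kept theirs under every alternative run. Of 130 medians of the lists 111 moved by less than the spread between arrays. No probe was called in the main test; calls were 114 higher and 38 lower with median scaling (which moved the median of all probes up by 0.35), 19 and 12 without the filter on dim probes, and 0 to 56 and 0 to 36 with each array left out, the 56 and 36 without doxycycline replicate 2, a fit that takes the lone array to vary like the controls. With a replicate block there were 206 and 158. Same-numbered arrays did not deviate together across probes (r = -0.129 between the control and the doxycycline differences of replicates 1 and 2). The labels do not say whether the numbers pair the arrays, and 1 correlation over 2 replicates cannot decide it. The cause of these calls was not tested. With each array left out, differences that crossed 0 ran from -0.54 to 0.30 (Hmox2 A_52_P477819), -0.19 to 0.50 (Hmox2 A_55_P2062678), -0.15 to 1.01 (Fech), -0.39 to 0.41 (Ftl1 A_55_P1968245), -0.22 to 0.44 (Ftl1 A_55_P1983959), -1.15 to 1.25 (Hamp) and -0.043 to 0.40 (Pcbp1). By setting, the sign also turned with median scaling for Hmox2 A_52_P477819 (0.22) and Pcbp2 (0.16), with quantile normalization for Ftl1 (-0.090 for A_55_P1968245 and -0.0054 for A_55_P1983959), with the percentile of detected probes for Ftl1 A_55_P1968245 (-0.068) and Hamp (-0.033), and with normexp for Hamp (-0.37), Flvcr1 (-0.085) and Pcbp2 (0.037). Both Hmox1 probes, Hp, Lcn2 and Slc39a8 passed the threshold with median scaling (2.90, 5.04 and 2.73 for the last 3) and with the replicate block. With the block their sizes were as in the main test (adjusted p = 0.00287 and 0.00593 for Hmox1, limma, with 1 residual degree of freedom). The block fit had infinite prior degrees of freedom, so it gave all probes a common variance and set aside each probe's own spread. Median scaling had 14.44 prior degrees of freedom, beside 4.60 in the main fit. The cause of these changes was not tested. Dim probes, among them Hamp and the second Tfrc probe, are limited by their signal over background, and 2 arrays a group limit every interval.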
